A study of Mus musculus with 6 samples.

Results

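The transcripts of 10 cell junction genes, the claudins Cldn1, Cldn2, Cldn3, Cldn4, Cldn7, Cldn12 and Cldn14 together with Ocln, Tjp1 and Cdh1, were followed in mouse livers whose hepatocytes had received Cre or GFP. They were chosen by gene symbol, with earlier results of these data known. The choice set claudins typical of hepatocytes beside those typical of bile duct cells. All 10 were found among the 18419 genes with a count. They passed the filter on low counts that left 13431 genes to test. Male Mettl14f/f mice on a C57BL/6J background, in which the gene of the m6A writer subunit METTL14 is flanked by loxP sites, were given a high-fat diet (HFD) from 8 weeks of age. After 10 weeks of HFD they were injected through the tail vein with AAV8-TBG-GFP (n = 3) or AAV8-TBG-Cre (n = 3), and whole livers were taken for RNA-seq 8 weeks later. The TBG promoter is active in hepatocytes, so duct, endothelial and immune cells of the same liver were not targeted, and HFD, the floxed alleles and the AAV8 vector were common to both groups. The labels call the groups WT and METTL14 KO, although both carry the floxed alleles.

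Tight junctions seal the space between neighbouring epithelial cells. Claudins are the membrane proteins that form their strands, some making a barrier and others a pore, occludin (Ocln) lies in the same strands, and ZO-1 (Tjp1) ties them to actin. Below them E-cadherin (Cdh1) holds cells together in adherens junctions. In the liver, hepatocyte tight junctions close the bile canaliculus against the blood, and the cholangiocytes that line bile ducts form a second epithelium with its own claudins, among which Cldn4 and Cldn7 are well known.

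Cldn4 rose from nearly nothing in AAV8-TBG-Cre livers, Cldn7 rose 4.93-fold and Cdh1 rose 3.53-fold, whereas the abundant liver claudins Cldn1, Cldn2, Cldn3, Cldn12 and Cldn14, and Ocln and Tjp1, did not pass the test. A gene was called by fold and p when its fold was at least 1.2 and its unadjusted p under 0.05 in edgeR's quasi-likelihood test, and by adjusted p when the Benjamini-Hochberg value was under 0.05. By fold and p, 3 of the 10 genes were higher and 0 lower, beside 12.0% of all tested genes higher and 8.41% lower. By adjusted p, 2 of the 10 (Cdh1 and Cldn4) were higher and 0 lower, beside 0.484% and 0.447% of all genes, and 0 members were lower by DESeq2 too. Cldn4 is counted here although it had fewer than 10 counts in every GFP liver. It entered the test through the Cre livers, and of the 159 tested genes in that position 148 were higher by fold and p, so its direction was nearly fixed by the filter. Cldn7, with fewer than 10 counts in GFP replicate 3, also passed the filter only with the Cre livers. The groups did not overlap in 3 of the 10, beside 27.0% of all tested genes. The median log2 fold change of the 10 genes was 0.34, beside -0.01 for all tested genes. Since the 10 were chosen with earlier results of these data known, these shares are a description and not an independent comparison.

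Cldn3 and Cldn4 are neighbours on mouse chromosome 5 and are transcribed away from each other, yet Cldn4 was called and Cldn3 was not, so the 250 bases before each start are shown. In RefSeq on GRCm38.p6, the assembly known as mm10 that the submitters' processing notes name, Cldn4 lies at chr5:134945123-134946934 on the minus strand and Cldn3 at chr5:134986214-134987476 on the plus strand, with 39280 bases between their starts and 0 other RefSeq genes inside that gap. The windows are chr5:134946935-134947184 (Cldn4, minus strand) and chr5:134985964-134986213 (Cldn3, plus strand), each 5′ to 3′ and ending at the base before the start. Capitals mark matches to the AP-1 motif TGANTCA and to the E-box CAGGTG, read on both strands.
Cldn4: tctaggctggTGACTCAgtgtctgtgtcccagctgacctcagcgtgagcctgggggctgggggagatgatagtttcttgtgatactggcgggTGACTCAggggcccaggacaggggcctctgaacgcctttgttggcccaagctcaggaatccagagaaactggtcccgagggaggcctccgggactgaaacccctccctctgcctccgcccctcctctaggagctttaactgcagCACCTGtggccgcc
Cldn3: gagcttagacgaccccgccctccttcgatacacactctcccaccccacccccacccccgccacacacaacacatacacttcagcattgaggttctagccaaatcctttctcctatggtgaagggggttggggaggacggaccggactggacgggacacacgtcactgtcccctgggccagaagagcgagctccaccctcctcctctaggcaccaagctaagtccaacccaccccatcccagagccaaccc

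The Cldn4 window held 2 AP-1 matches, 240 and 158 bases before the start, and 1 E-box match 14 bases before it, whereas the Cldn3 window held 0 of either. Among all 32851 promoter windows of RefSeq, 6.75% held the AP-1 motif and 17.2% the E-box in the same 250 bases. Over the 15 windows of the 9 members that RefSeq entries were given for, AP-1 was found in 1 window and the E-box in 4, those of Cldn4, Cldn7, Ocln and Cldn14. No window was available for Cdh1, so it was not searched for any motif. The grainyhead motif AACCNGTT was in 0 of the 15 and in 1.79% of all windows. Of the other 3 motifs searched, the GC box GGGCGG was in 9 of the 15 (32.7% of all), the ETS motif GGAAGT in 3 (19.7%), and the TATA box TATAAA in 1, that of Cldn2 (12.4%). These are matches of letters in one window per transcript start, with no measurement of binding.

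Each library held 20356440 to 21010508 counts, and the 10 most abundant genes took 15.8% to 17.7% of them. Mettl14 itself had whole-gene counts of 124, 126 and 111 in GFP livers and 104, 131 and 101 in Cre livers, a fold of 0.821 with an adjusted p of 0.337, which did not pass the test. In CPM it was 6.3, 6.43 and 5.81 in GFP livers and 4.96, 5.38 and 4.86 in Cre livers, so that the groups did not overlap. Whole-gene counts do not resolve the floxed part, and cells other than hepatocytes keep an intact gene. Library names came in a short form (GFP replicates 1 and 2, Cre replicate 1) and a long form (GFP replicate 3, Cre replicates 2 and 3), which neither the labels nor the methods explain. Values within each form are given for some of the genes. The labels do not say which mouse each library came from beyond its number, and p-values measure the spread between these libraries. Cldn3 overlaps the gene Wbscr25 by 44 bases in RefSeq, which stood at 0 to 0.288 CPM, and strand was not stated for the counts. In whole liver, more cells of a type and more RNA per cell cannot be told apart.

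**Figure D1:**
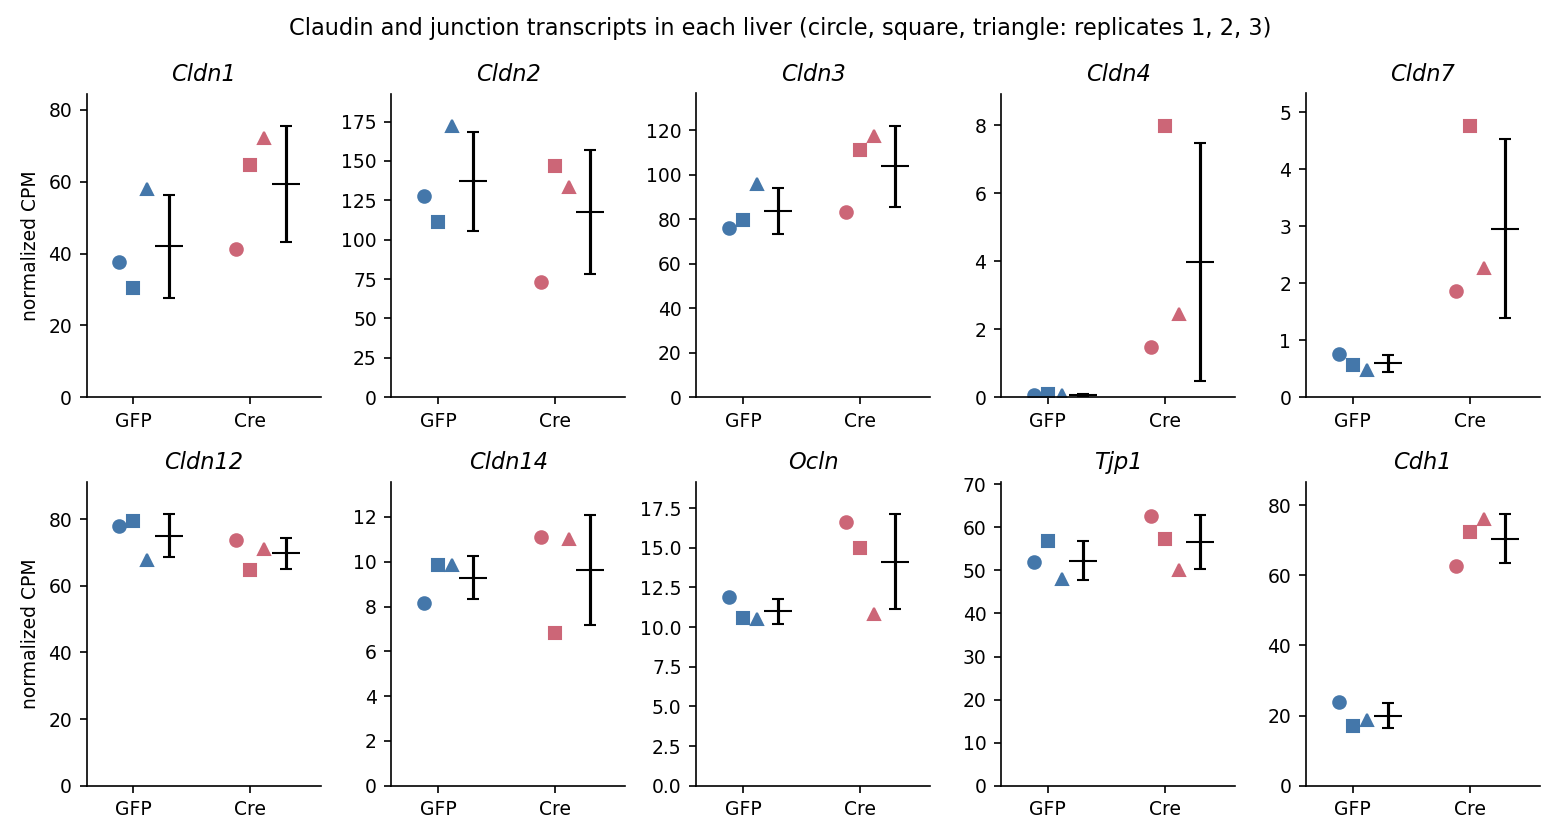
Normalized CPM (y axes, from 0) of each of the 10 genes in the 3 GFP (blue) and 3 Cre (red) livers, with circle, square and triangle for replicates 1, 2 and 3 and a black bar for the mean ± SD. Cldn4, Cldn7 and Cdh1 separate the groups, from 0.102 to 1.48, from 0.762 to 1.86 and from 23.9 to 62.7 CPM between the highest GFP and the lowest Cre liver, and in the other 7 panels the groups overlap.

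Cldn4 (NCBI gene 12740), a barrier claudin of duct and other simple epithelia, had 1, 2 and 1 counts in GFP livers and 31, 194 and 51 in Cre livers. In counts per 1000000 of scaled library size (CPM) these were 0.0508, 0.102 and 0.0523 in GFP replicates 1 to 3 and 1.48, 7.97 and 2.45 in Cre replicates 1 to 3. Every Cre liver was above every GFP liver, and Cre replicate 2 was far above the other Cre livers. The lowest Cre liver was replicate 1, which has a short library name. As a log2 ratio of means, the change was 4.27 within short-named and 6.64 within long-named libraries. The summed counts, 276 in Cre against 4 in GFP, gave a ratio per depth of 61.0 with an exact 95% interval of 23.5 to 225.3, which covers counting error only. The fitted log2 fold change was 5.75 ± 0.91 (SE), with an adjusted p of 0.0409 by edgeR, and at such low GFP counts its size depends on the prior count used. As it passed the filter on low counts through the Cre livers, the call by itself carries little weight. Without Cre replicate 2 the adjusted p was 0.0559 (log2 fold change 4.72), and without GFP replicates 1, 2 or 3 or Cre replicate 3 it was 0.151, 0.167, 0.128 and 0.0855. Over all 15 alternative settings that tested the gene it ran from 3.6e-07 to 0.222, and the direction was the same in all of them.

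Cldn7 (NCBI gene 53624, chr11:69964779-69967886), a claudin found along the lateral membrane of many simple epithelia, stood at 0.762, 0.561 and 0.471 CPM in GFP livers. In Cre livers it stood at 1.86, 4.76 and 2.26 CPM, again with replicate 2 on top and replicate 1 lowest, and with no overlap between groups. The log2 ratio of means was 1.49 within short-named and 2.90 within long-named libraries. Its GFP counts were 15, 11 and 9, so it passed the filter on low counts only with the Cre livers. The log2 fold change was 2.30 ± 0.45 (SE), with an adjusted p of 0.0595 by edgeR, so that it was called by fold and p but not by adjusted p. Without any filter on low counts the adjusted p was 0.0347, without Cre replicate 1 it was 0.028, and by DESeq2 it was 0.000489, in a range of 0.000489 to 0.202 over 15 alternatives.

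E-cadherin, Cdh1 (NCBI gene 12550, chr8:106603350-106670247), had 471, 336 and 359 counts in GFP livers and 1314, 1764 and 1582 in Cre livers. Its CPM was 23.9, 17.1 and 18.8 in GFP livers and 62.7, 72.5 and 76.1 in Cre livers. The Cre livers lay close together, 70.4 ± 6.94 (SD, n = 3), and well clear of the GFP livers, 20.0 ± 3.54 (SD, n = 3). The log2 fold change was 1.82 ± 0.15 (SE), with an adjusted p of 0.0149 by edgeR. It was 1.61 within short-named and 1.98 within long-named libraries as a log2 ratio of means. The adjusted p rose to 0.0827 without GFP replicate 2 and to 0.0559 without Cre replicate 2, and it was 0.0661 with the replicate number as a block, in a range of 3.24e-20 to 0.0827 over 16 alternatives, while the log2 fold change stayed between 1.72 and 1.97.

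N-cadherin (Cdh2), the other classical cadherin of hepatocytes, was 167.7, 153.5 and 181.5 CPM in GFP livers and 131.2, 144.2 and 130.9 CPM in Cre livers, a log2 fold change of -0.31 ± 0.12 (SE) that was called lower by fold and p but not by adjusted p (0.19, edgeR). The call was kept in 7 of 16 alternatives. It was lost under upper quartile scaling, with the replicate number as a block and in the limma fits on FPKM (-0.13 and -0.14). Leaving out GFP replicates 1 or 3 or Cre replicates 1 or 3 also lost it. The sign was negative in all 16 alternatives. In FPKM the groups overlapped, since Cre replicate 2 at 34.54 was above the GFP livers at 32.93, 29.65 and 33.67 and the other Cre livers were at 27.23 and 26.32. Per length, in FPKM, the ratio of Cdh1 to Cdh2 was 0.156, 0.122 and 0.113 in GFP livers and 0.522, 0.549 and 0.636 in Cre livers. Cdh2 thus remained the more abundant per length in each of the 6 livers. The means were 0.13 ± 0.0227 and 0.569 ± 0.0595 (SD, n = 3), with p = 0.1 in an exact two-sided permutation test, the smallest that 3 against 3 livers allow.

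**Figure D2:**
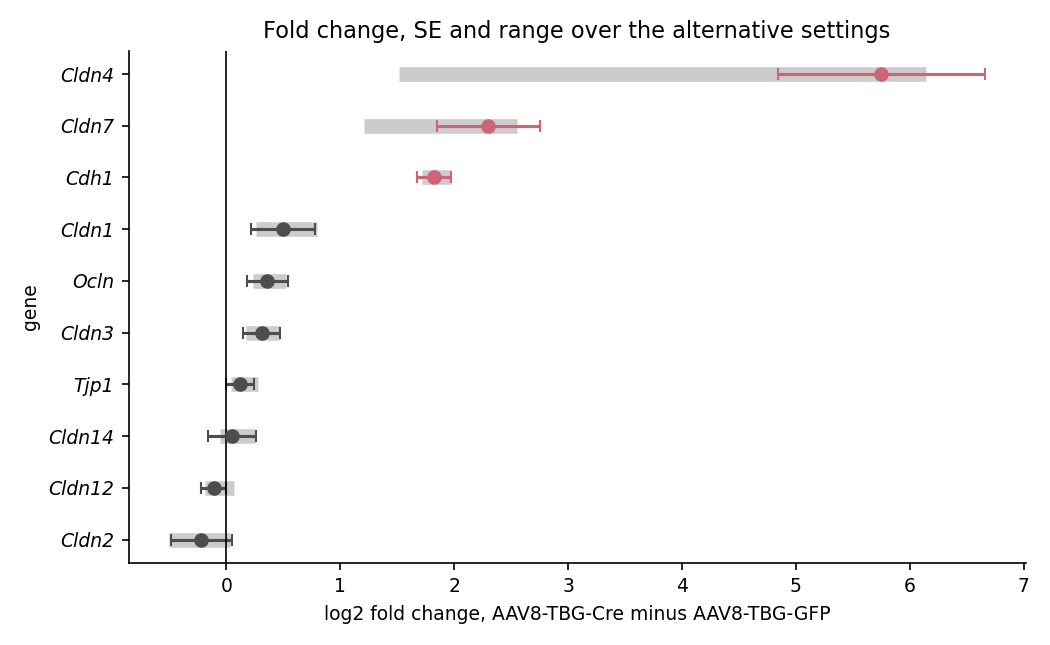
Log2 fold change (x axis, Cre minus GFP) of the 10 genes from edgeR, with points for the estimate, bars for its SE, red for genes called by fold and p, and grey bands for the range over the alternative settings. Cdh1 has the narrowest band of the called genes (1.72 to 1.97) and Cldn4 the widest (1.52 to 6.14), and the bands of Cldn2, Cldn12 and Cldn14 cross 0.

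Among the claudins of the hepatocyte canaliculus, Cldn3 (NCBI gene 12739), a barrier claudin, was the most abundant per length. It stood at 76.0, 79.8 and 95.7 CPM in GFP livers and 83.2, 111.1 and 117.3 CPM in Cre livers. The lowest Cre liver lay among the GFP livers, and the difference of 0.31 ± 0.16 (log2, SE) did not pass the test (adjusted p = 0.32, edgeR). It passed by fold and p, never by adjusted p, when Cre replicate 1 was left out (0.44), when libraries were scaled by upper quartile (0.37) and on log2(FPKM + 1) by limma (0.46).

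Cldn1 (NCBI gene 12737, chr16:26356645-26371839), another barrier claudin, was 37.5, 30.3 and 58.1 CPM in GFP livers and 41.2, 64.6 and 72.2 CPM in Cre livers. In both groups the livers with long library names had the higher values. The log2 fold change was 0.50 ± 0.28 (SE; adjusted p = 0.357, edgeR), with log2 ratios of means of 0.28 within short-named and 0.24 within long-named libraries. Leaving out GFP replicate 3 or Cre replicate 1 brought it past fold and p, at 0.80 and 0.71.

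Cldn2 (NCBI gene 12738, chrX:139800808-139811386), which forms a pore for cations and water and in liver is known from pericentral hepatocytes and ducts, was 127.9, 111.4 and 172.2 CPM in GFP livers. The Cre livers had 73.0, 146.9 and 133.2 CPM, with replicate 1 below every other liver. The log2 fold change of -0.22 ± 0.27 (SE) did not pass the test (adjusted p = 0.698, edgeR). It was 0.03 without Cre replicate 1. When the library name form entered the model it was -0.50 and was called lower by fold and p, though not by adjusted p (0.113), and the ratios of means were -0.71 within short-named and -0.30 within long-named libraries. Over 16 alternatives the adjusted p of Cldn2 ran from 0.113 to 0.959. Glul, the glutamine synthetase of the innermost pericentral hepatocytes, fell by 0.80 on the log2 scale by fold and p (adjusted p = 0.158, edgeR), and its lowest value was in Cre replicate 1. It was 1 of 10 pericentral markers, of which 3 were called lower, 7 were not called and 3 had a positive log2 fold change. Of the others called lower, Slc1a2 was lowest in Cre replicate 1 (178.8 CPM) and Cyp1a2 in Cre replicate 3 (244.9 CPM). Whether Cldn2 and these markers changed together was not tested.

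Cldn12 (NCBI gene 64945), a claudin linked to paracellular calcium transport, was the steadiest of the abundant claudins. It was 77.9, 79.5 and 67.7 CPM in GFP livers and 73.7, 64.7 and 70.9 CPM in Cre livers, with a log2 fold change of -0.11 ± 0.11 (SE; adjusted p = 0.633, edgeR). Cldn14 (NCBI gene 56173), a barrier claudin of liver, kidney and inner ear, was 8.18, 9.85 and 9.84 CPM in GFP livers and 11.1, 6.82 and 11 CPM in Cre livers. Its log2 fold change was 0.05 ± 0.21 (SE; adjusted p = 0.912, edgeR), and the GFP livers lay inside the range of the Cre livers.

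Ocln (NCBI gene 18260), occludin, was 11.9, 10.6 and 10.5 CPM in GFP livers and 16.6, 15.0 and 10.8 CPM in Cre livers. Cre replicates 1 and 2 were above every GFP liver and replicate 3 lay among them, and the log2 fold change of 0.36 ± 0.18 (SE; adjusted p = 0.287, edgeR) did not pass. It passed by fold and p, not by adjusted p, with the library name form as a covariate (0.43), on log2(FPKM + 0.1) by limma (0.50) and without Cre replicate 3 (0.52). Its adjusted p ran from 0.14 to 0.555 over 16 alternatives.

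Tjp1 (NCBI gene 21872, chr7:65296165-65527850), the ZO-1 scaffold, was 52.0, 56.9 and 48.0 CPM in GFP livers and 62.6, 57.3 and 50.1 CPM in Cre livers, and the log2 fold change of 0.12 ± 0.12 (SE; adjusted p = 0.63, edgeR) did not pass. Its 2 transcripts were not in the same proportion. The shorter, NM_001163574, took 17.9%, 11.7% and 15.1% of the gene's expected counts in GFP livers and 27.8%, 32.7% and 25.3% in Cre livers, so that the groups did not overlap. The means were 14.9% ± 3.09 and 28.6% ± 3.75 (SD, n = 3), with p = 0.1 in the exact two-sided permutation test, the smallest it can give. In CPM this transcript was 9.29, 6.65 and 7.25 in GFP livers and 17.4, 18.7 and 12.7 in Cre livers, whereas the longer one, NM_009386, was 44.6 ± 4.99 in GFP and 40.4 ± 4.2 in Cre livers (SD, n = 3). These shares are the deposited estimates of how reads common to both transcripts divide. Cldn7, Cldn12 and Cldn14 also have more than 1 transcript, and in each of their transcripts the shares of the groups overlapped. The comparison of transcripts was made after their values were seen.

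**Figure D3:**
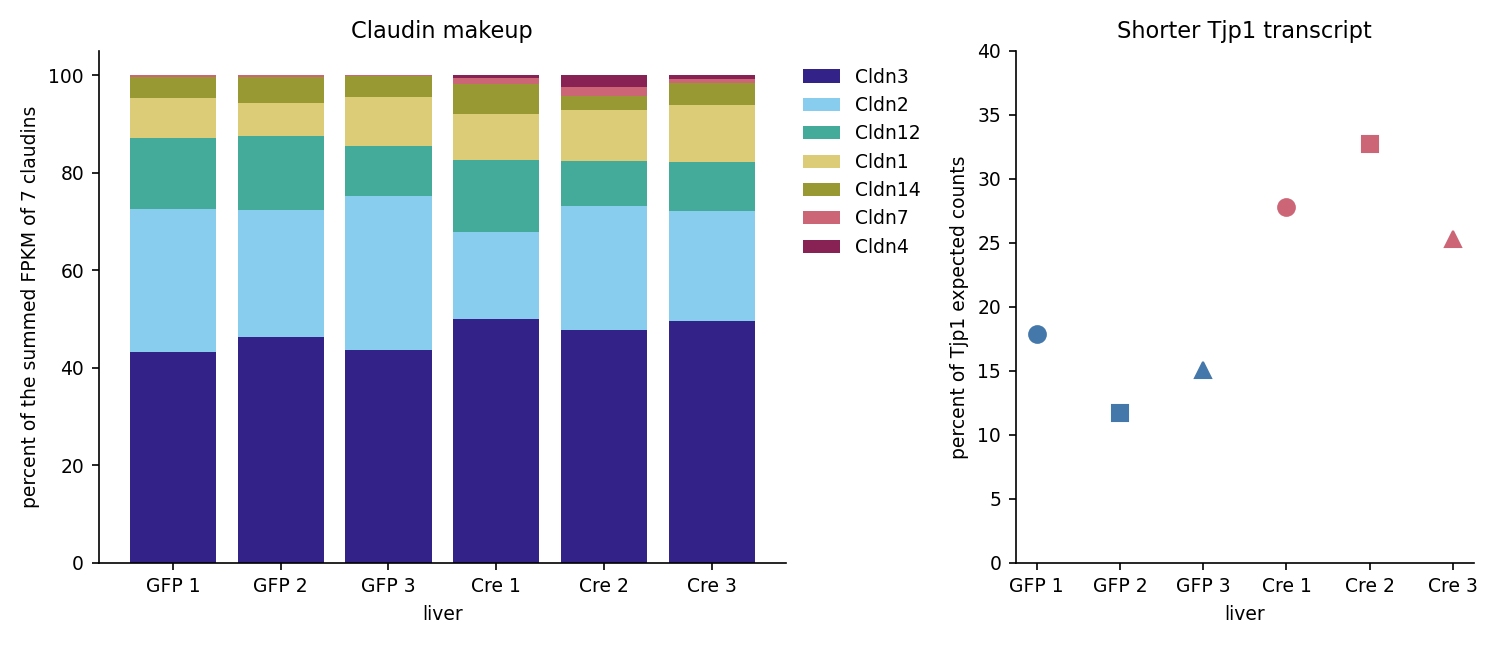
Left, the share of each of 7 claudins in their summed FPKM (y axis, percent) in the 6 livers; right, the share of the shorter Tjp1 transcript in that gene's expected counts. Cldn3 and Cldn2 make up most of each bar, Cldn4 and Cldn7 together go from 0.231% to 0.442% in GFP to 1.63% to 4.32% in Cre livers, and the Tjp1 transcript goes from 11.7% to 17.9% to 25.3% to 32.7%.

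Levels of different genes were compared in FPKM, the authors' values divided by transcript length and sequencing depth. In GFP livers the order from the top was Cldn3 (63.0 ± 5.95, SD, n = 3), Cldn2 (41.5 ± 8.38), Cldn12 (18.8 ± 2.03), Cldn1 (11.9 ± 3.77), Tjp1 (6.92 ± 0.724), Cldn14 (6.62 ± 0.705), Cdh1 (4.19 ± 0.828), Ocln (3.22 ± 0.312), Cldn7 (0.44 ± 0.118) and Cldn4 (0.0367 ± 0.0115). Of these neighbours Tjp1 and Cldn14 overlapped over the 3 livers and the other pairs did not. In Cre livers Cdh1 moved from place 7 to place 5 of 10, at 16.6 ± 2.38 FPKM, where it overlapped Cldn1 (19.2 ± 5.61). Cldn12 (19.6 ± 0.798) also overlapped Cldn1 there, Tjp1 (8.48 ± 1.34) overlapped Cldn14 (7.70 ± 1.40), and Cldn7 (2.53 ± 1.55) overlapped both Ocln (4.68 ± 1.19) and Cldn4 (2.43 ± 2.36). Even after its rise, Cldn4 with Cldn7 made up 1.76%, 4.32% and 1.63% of the FPKM of the 7 claudins in Cre livers, against 0.442%, 0.351% and 0.231% in GFP livers. Cldn3 took 50.1%, 47.7% and 49.5% in Cre livers against 43.2%, 46.2% and 43.6% in GFP livers. Cldn2 took 17.7%, 25.4% and 22.7% against 29.3%, 26.0% and 31.6%. For all 3 of these shares the groups did not overlap and the exact two-sided permutation test gave its smallest p, 0.1. FPKM values ran higher in Cre livers than CPM values did, by 0.15 (log2, median of the genes tested both ways), and shares within a liver are not touched by that shift.

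Markers of bile duct cells rose in the same livers as Cldn4, Cldn7 and Cdh1. The list of 12 such genes was made with earlier results of these data known. Of these, 11 were tested and all 11 were higher by fold and p, beside 12.0% of all tested genes. Their median log2 fold change was 2.50. Cftr and Sctr had fewer than 10 counts in every GFP liver, and Krt7 and Cdh6 in some but not all. These genes passed the filter on low counts only with the Cre livers, so their calls by themselves carry little weight. Higher also by adjusted p (edgeR) were 3 of the 11: St14, a membrane serine protease (3.11, adjusted p = 0.0396), Spp1, osteopontin (2.28, adjusted p = 0.0444), and Sox9, a duct transcription factor (1.63, adjusted p = 0.0454). Spp1 took most of the list's summed level, and without it the sum was 36.7 to 47.8 CPM in GFP and 73.7 to 146.5 CPM in Cre livers. Epcam, the epithelial adhesion molecule of ducts, was 3.46, 1.17 and 1.31 CPM in GFP livers and 8.02, 20.0 and 10.2 CPM in Cre livers, with the highest value in Cre replicate 2, as for Cldn4 and Cldn7. Its log2 ratio of means was 1.79 within short-named and 3.52 within long-named libraries. What part these cells have in the rise of Cldn4, Cldn7 and Cdh1 was not tested.

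Of the 3 called genes, only Cldn4 had ratios to Epcam that did not overlap between the groups. Cldn7 over Epcam in CPM was 0.232, 0.239 and 0.223 in Cre livers, inside the GFP range at 0.221, 0.478 and 0.360 (permutation p = 0.4, exact, two-sided). Cldn4 over Epcam was 0.185, 0.399 and 0.242 in Cre livers and 0.0147, 0.0870 and 0.0400 in GFP livers, the GFP ratios resting on 1 or 2 Cldn4 counts each. Cdh1 over Epcam was 7.82, 3.63 and 7.50 in Cre livers and 6.93, 14.6 and 14.4 in GFP livers, with overlap (permutation p = 0.3, exact, two-sided). Across the Cre livers Epcam, Cldn4 and Cldn7 were each highest in replicate 2, whereas Cdh1 was highest in replicate 3 and ranged least.

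**Figure D4:**
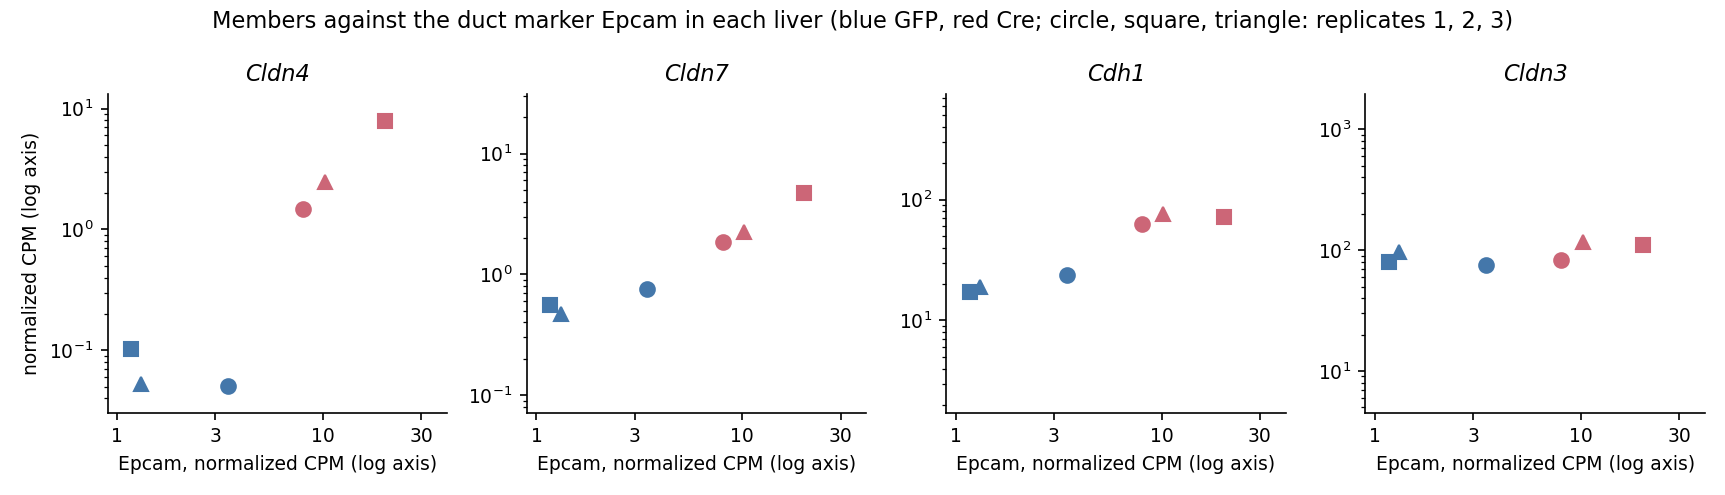
Normalized CPM of Cldn4, Cldn7, Cdh1 and Cldn3 (y axes) against that of Epcam (x axis), all on log axes of equal y span, with 1 point per liver (blue GFP, red Cre; circle, square and triangle for replicates 1, 2 and 3). Cldn4 and Cldn7 follow Epcam among the Cre livers up to 7.97 and 4.76 CPM, Cdh1 forms a lower and an upper level, and Cldn3 stays between 76.0 and 117.3 CPM.

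Markers of other cells were read in the same way. Beside each count by fold and p that follows stand the shares of all tested genes, 12.0% higher and 8.41% lower. Macrophage markers were higher by fold and p in 7 of 10 tested genes (Cd5l, the complement gene C1qa and Lyz2 with the smallest p, and Cd5l also by adjusted p, 0.0471 by edgeR) and summed to 254.2 to 294.1 CPM in GFP and 398.4 to 613.5 CPM in Cre livers, and stellate and fibroblast markers were higher in 5 of 10 (the collagens Col3a1 and Col1a1 and then Lum), with sums of 231.9 to 354.5 and 432.4 to 916.1 CPM. In both lists Cre replicate 2 had the highest sum. Neutrophil markers were higher in 3 of 4 tested, S100a8 (adjusted p = 0.0409, edgeR), S100a9 and Csf3r (sums of 9.23 to 10.7 and 15.7 to 18.9 CPM), and T and NK markers were higher in 2 (Cd8a and Ccl5) and lower in 1 (Cd4) of 4. Mesothelial markers, from a cell sheet on the liver surface that also makes epithelial junctions, were higher in 2 of 4 (Msln and Gpm6a), at sums of 1.33 to 3.98 and 3.96 to 10.5 CPM. Pancreatic acinar markers summed to under 1 CPM in each library, with 2 of the 6 genes having any count. Of the intestinal markers Vil1 and Tff3 were higher and Fabp2 lower among 4 tested, and the list's sums overlapped. Endothelial markers were lower in 1 of 10 (Stab2) and higher in 0. Among the genes called higher, S100a8, Msln and Vil1 had fewer than 10 counts in every GFP liver, and Cd8a and Gpm6a in some but not all. These passed the filter on low counts only with the Cre livers, so their calls by themselves carry little weight.

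Hepatocyte markers were higher in 2 (Cps1 and Ahsg) and lower in 1 (Ttr) of 10, and their sums of 109610.3 to 136647 CPM in GFP and 98147 to 123619 CPM in Cre livers overlapped. Pericentral markers were lower in 3 of 10 (Glul, Cyp1a2 and Slc1a2) and higher in 0, and periportal markers were higher in 1 of 10 (Aldh1b1) and lower in 0. None of these sums was entered in the tests of the claudins, and their part in those results was not tested.

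Beyond the 10 genes, lists of other junction genes were read, made with earlier results of these data known. Of 68 tested genes in the 5 lists, 18 were higher (26.5%, beside 12.0% of all genes) and 4 lower (5.88%, beside 8.41%) by fold and p, and 1 passed by adjusted p, with a median log2 fold change of 0.11 beside -0.01. The 18 were mostly scarce or moderately expressed genes. Where the mean over all libraries was under 2 in log2 CPM, 9 of 16 junction genes were higher (median 1.56), beside 22.6% of all 3317 such genes (median 0.27). Above that level 9 of 52 were higher and 4 lower (median 0.07), beside 8.58% and 9.86% of 10114 genes. Of the 18, 3 (Cldn6, Ildr1 and Nectin4) had fewer than 10 counts in every GFP liver and so had entered the test through the Cre livers. Cldn8, Cdh3, Cdh6 and Pkp1, also called higher, had fewer than 10 counts in some but not all GFP livers. They too passed the filter only with the Cre livers, as did Pard6g and Gja5, which were not called. The calls of such scarce genes by themselves carry little weight.

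Other claudins were measured in 5 genes of this list with enough counts, of which 2 were higher. Cldn6, an embryonic claudin, had 0.407, 0 and 0.366 CPM in GFP livers and 1.24, 3.29 and 2.12 CPM in Cre livers, with 150 counts against 15 and a ratio per depth of 8.84 (exact 95% interval 5.19 to 16.2, counting error only). Cldn8, a barrier claudin of distal nephron and gut, was 0.712, 0.204 and 0.366 CPM in GFP and 1.00, 2.92 and 1.40 CPM in Cre livers (log2 fold change 2.04, adjusted p = 0.109, edgeR). Both Cldn6 and Cldn8 passed the filter on low counts only with the Cre livers, so their calls by themselves carry little weight. Cldn5, the claudin of endothelium, did not pass (log2 fold change -0.10, adjusted p = 0.896, edgeR). The other 10 with a count were too scarce to test.

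In the tight junction list 8 of 32 tested genes were higher and 2 lower. Amot, angiomotin, a scaffold that binds YAP, was the junction gene that passed by adjusted p (edgeR): it was 7.27, 6.12 and 7.17 CPM in GFP livers and 13.2, 15.3 and 13.8 CPM in Cre livers, a log2 fold change of 1.04 ± 0.14 (SE) with an adjusted p of 0.0330. By fold and p, Ildr1, which marks corners where 3 cells meet, rose by 2.64, and Ybx3, the ZO-1 partner ZONAB, rose by 0.47, on the log2 scale. Ildr1 passed the filter on low counts only with the Cre livers, so its call by itself carries little weight. Marveld2, tricellulin, also rose, by 0.96, from 8.11 to 9.95 CPM in GFP to 11.3 to 20.7 CPM in Cre livers. The genes that fell were Ildr2 (-1.23), from 64.4 to 78.4 CPM in GFP livers to 17.5 to 42.1 CPM in Cre livers, and Cgnl1, paracingulin (-0.42), from 129.1 to 134.0 CPM to 93.5 to 102.4 CPM, neither of which overlapped between groups. Lsr, related to Ildr1 and Ildr2 and more abundant than either, rose by 0.34 by fold and p, from 189.7 to 211.0 CPM in GFP to 213.3 to 280.7 CPM in Cre livers. The scaffolds Tjp3 (-0.06) and Cgn (0.01) did not pass (adjusted p = 0.907 and 0.970, edgeR).

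In the adherens junction list 5 of 16 were higher and 1, Cdh2, was lower. By fold and p, the genes that rose with the smallest p were Cdh6, a cadherin of ducts and kidney that is also in the duct list (2.65), Nectin4, an immunoglobulin-like adhesion protein (1.85), and Cdhr5, a protocadherin of brush borders (0.43). Cdh6 and Nectin4 passed the filter on low counts only with the Cre livers, so their calls by themselves carry little weight. The catenins that link cadherins to actin stayed level: Ctnnb1 was 186.9 to 209.2 CPM in GFP and 197.1 to 209.8 CPM in Cre livers (log2 fold change 0.01), and Ctnna1 (0.09) and Ctnnd1 (0.12) did not pass either (adjusted p = 0.964, 0.655 and 0.559, edgeR).

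Desmosomes, which anchor keratin filaments, had 3 of 10 genes higher and 1 lower. Ppl, periplakin, went from 20.8, 13.3 and 26.2 CPM to 34.5, 58.1 and 52.9 CPM (1.27), Evpl, envoplakin, rose by 1.88 and Pkp1, plakophilin 1, by 2.22 on the log2 scale, while Perp fell by 0.28. The groups overlapped in Pkp1, with 0.62 CPM in Cre replicate 1 beside 0.661, 0.51 and 0.262 CPM in GFP livers. Its log2 ratio of means was 0.08 within short-named and 3.54 within long-named libraries. The core genes Dsp (0.06) and Dsg2 (0.22) did not pass (adjusted p = 0.851 and 0.357, edgeR). Among 5 gap junction genes 0 were higher and 0 lower by fold and p, and 0 passed at an unadjusted p under 0.05 by edgeR, DESeq2 or limma on log2(FPKM + 1). Gjb1, the main hepatocyte connexin, had a log2 fold change of -0.09, and Gja1, the connexin of ducts and mesenchyme, of 0.70 (adjusted p = 0.805 and 0.34, edgeR).

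**Figure D5:**
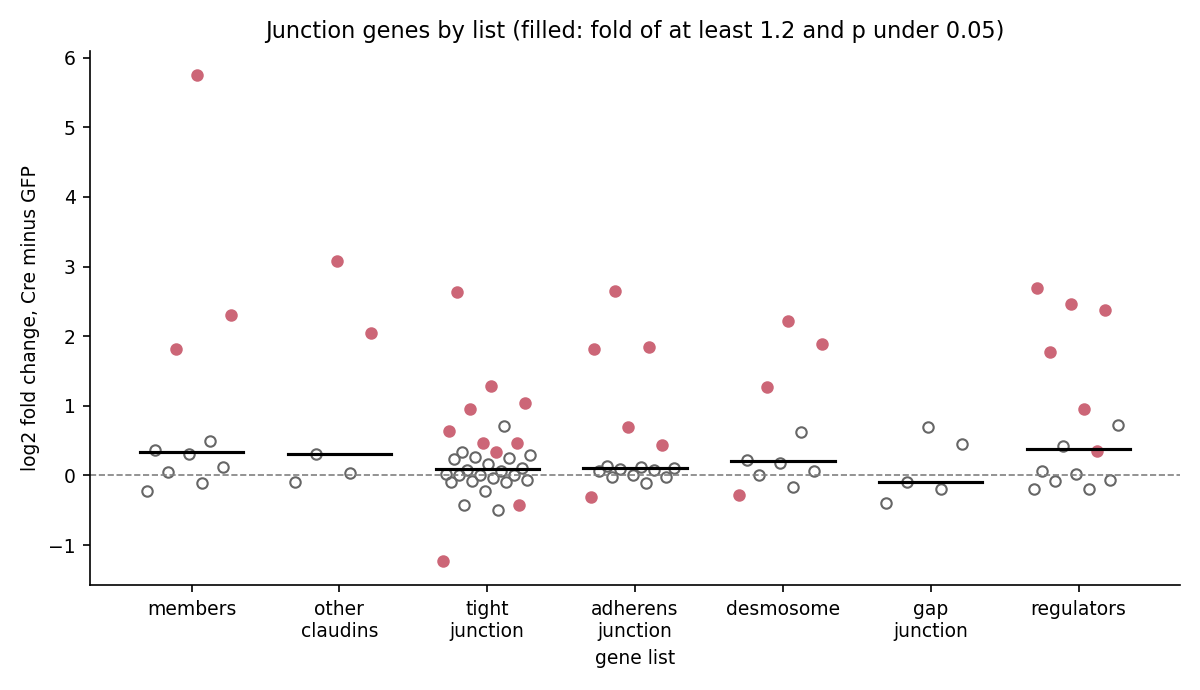
Log2 fold change (y axis, Cre minus GFP) of each tested gene in the 10 members, 5 junction lists and the list of regulators, with filled red points for genes called by fold and p, open points for the others and a black line for each list's median. The points above 1.5 are filled and come from every list but gap junctions, and most abundant junction genes lie near 0.

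Regulators of epithelial junction genes were higher by fold and p in 6 of 14 tested and lower in 0, beside 12.0% and 8.41% of all tested genes. Of those called, Klf5 had fewer than 10 counts in every GFP liver, and Grhl2, Esrp1 and Elf3 in some but not all. These genes passed the filter on low counts only with the Cre livers. Elf3, an ETS factor of epithelia, was 0.457, 0.612 and 0.628 CPM in GFP livers and 3.10, 5.63 and 2.26 CPM in Cre livers, a log2 fold change of 2.69 ± 0.42 (SE; adjusted p = 0.0396, edgeR). Grhl1, a grainyhead factor, rose by 0.95, Klf5 by 2.46 and Esrp1, an epithelial splicing factor, by 1.77 on the log2 scale, by fold and p and not by adjusted p. Known repressors of Cdh1 were not called: Snai1 had a log2 fold change of 0.72, Snai2 of -0.08, Zeb1 of -0.06 and Zeb2 of 0.42, with adjusted p of 0.243 to 0.895 by edgeR. Snai1 narrowly missed the call (unadjusted p = 0.0521, edgeR). Its groups did not overlap, at 2.34, 1.68 and 1.1 CPM in GFP and 2.72, 3.29 and 2.45 CPM in Cre livers. Twist1 (-0.19, adjusted p = 0.902, edgeR) did not pass either, and Snai3 and Twist2 were too scarce to test. Hnf4a, the hepatocyte factor, stood at a log2 difference of 0.07 (adjusted p = 0.871, edgeR).

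Over the 6 libraries, the log2 CPM of Cldn4 was most like that of B4galt6 (Pearson r = 0.999), Irf8 (0.999), Sh3pxd2b (0.998), Bspry (0.998) and Cyp2s1 (0.997). Cdh1 was most like Rnf145 (0.999), Tmem86a (0.997), H2-T24 (0.995), Zfp251 (0.990) and Cep128 (0.990), and Cldn2 was most like Stam2 (0.990), Selenoi (0.985), Ube2e2 (0.984), Crat (0.983) and Amigo1 (0.981). These are the top 5 of all tested genes over 6 points in 2 groups that share each library's depth, and they describe likeness of pattern in these livers. The nearest genes of Cldn4 had their highest values in Cre replicate 2, such as Sh3pxd2b at 20.9 CPM beside 5.87 and 9.10 in the other Cre livers, whereas those of Cdh1 were level across Cre livers, such as Tmem86a at 21.5, 22.5 and 22.3 CPM.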

How the data were processed

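Whole-liver RNA was sequenced in 6 mice, 3 per group. The deposited transcript tables hold expected counts, estimated by the authors per RefSeq transcript; the submitters' processing notes name HISAT2, Bowtie2, RSEM and mm10, while the methods name STAR, HTSeq and DESeq2. The authors also deposited FPKM per gene, normalized for length and depth. Strand was not stated. Here expected counts were summed per NCBI gene and rounded, genes were filtered with filterByExpr, libraries were scaled by TMM, and groups were compared by edgeR's quasi-likelihood test (edgeR 4.0.16, limma 3.58.1, DESeq2 1.42.0, R 4.3.3), with Benjamini-Hochberg adjustment over all tested genes. CPM used TMM-scaled library sizes. FPKM was used to compare genes and, by limma on log2 values with a pseudocount of 1 or 0.1, as an alternative, which understates changes of low genes. The scripts were tested on simulated data.

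The members and lists were chosen with earlier results of these data known. Named were all members, and in each list the genes with an adjusted p under 0.05 and up to 3 per direction with the smallest p by fold and p; genes named as not passing, Marveld2, Lsr and list genes beyond 3 were chosen after their values were seen. Lists held other claudins, tight junction, adherens junction, desmosome and gap junction genes, regulators, and markers of cholangiocytes, hepatocytes (also pericentral and periportal), endothelium, macrophages, stellate cells and fibroblasts, mesothelium, pancreatic acini, intestine, T and NK cells and neutrophils. Alternatives changed the test, scaling, filter, covariates, fold threshold and libraries. The deposited files gave no depth beyond counts, which limit Cldn4 and other scarce genes most.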

Additional observations from a re-analysis of the deposited data

How the results depend on the processing

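The direction of Cdh1, Cldn4 and Cldn7 was the same under every alternative run that tested them, and each stayed past fold and p. The number of members higher by fold and p was 3, and it moved to 1 when 10 counts were required in every library, which leaves Cldn4 and Cldn7 out, and to 5 on log2(FPKM + 0.1) by limma. Members lower by fold and p went from 0 to 1 with the library name form as a covariate (Cldn2, -0.50). The number higher by adjusted p went from 2 to 1 under upper quartile scaling, under the filter of 10 counts and on log2(FPKM + 1), with and without a filter, or log2(FPKM + 0.1). Junction genes higher went from 18 to 11 under the filter of 10 counts, and junction genes lower went from 4 to 2 under upper quartile scaling, 1 in each limma fit and 1 at a fold of 1.5. Cldn3 passed fold and p under upper quartile scaling (0.37) and by limma (0.46, and 0.47 with a pseudocount of 0.1), and Ocln with the name form as a covariate (0.43) and by limma with a pseudocount of 0.1 (0.50). Cldn12 changed sign in the limma fits (0.06, 0.07 and 0.06), where FPKM put all genes higher by 0.15 to 0.16; relative to that shift it stayed below 0. The cause of the other changes was not tested.

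Same-numbered libraries correlated at 0.045, -0.28 and 0.229 in their deviations from the group means, and different-numbered ones at -0.318 to 0.337. With 3 libraries per group this cannot settle whether the numbers pair the mice, and the labels do not say. With a replicate block, 5 members were higher by fold and p (Cldn1 at 0.51 and Cldn3 at 0.30 joined), 1 by adjusted p (Cldn4 at 0.0462, with Cdh1 lost at 0.0661), Cdh2 was no longer called, and 2 junction genes were lower.

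Leaving out each library in turn, members higher ranged from 3 to 5 by fold and p and from 0 to 3 by adjusted p, members lower stayed at 0, and junction genes ranged from 15 to 20 higher and from 2 to 6 lower. Without GFP replicate 2 or Cre replicate 2 no member passed by adjusted p. Log2 fold changes ranged from 0.31 to 0.80 for Cldn1, from -0.41 to 0.03 for Cldn2 (0.03 without Cre replicate 1), from 0.21 to 0.44 for Cldn3, from -0.06 to 0.25 for Cldn14 (-0.04 without GFP replicate 1, -0.06 without Cre replicates 1 or 3) and from 0.23 to 0.52 for Ocln. Of all calls by fold and p, 58.9% were higher in Cre, against 72.3% under upper quartile scaling and 83.7% to 84.7% by limma. Genes called by adjusted p numbered 125 and went to 1157 by DESeq2, 7 with the replicate block, and 0 without GFP replicate 2 or Cre replicate 2.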
